A study of Mus musculus with 947 samples.

Results

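The miR-30 family was followed through its 5 members read from the 5′ arm of the precursor (mmu-miR-30a-5p, mmu-miR-30b-5p, mmu-miR-30c-5p, mmu-miR-30d-5p and mmu-miR-30e-5p, written without mmu below), which were taken by name from the expression tables of both cohorts. They are 5 of 1076 miRNAs listed for the aging cohort and 5 of 795 listed for the parabiosis cohort. The 6 arms from the other side of the same precursors and miR-384-5p, a miRNA with the same seed, are given beside them. Small RNA libraries were made from whole tissue, and each value is the reads of a miRNA scaled to the mapped reads of its library (rpmm, a normalised read count).

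The aging cohort held 769 libraries of 16 tissues from perfused C57BL/6JN mice, 553 of them from males and the rest from females. Ages ran in steps of 3 months from 3 to 27 months, beside a group of 1 month, and females were sampled until 21 months. The parabiosis cohort held 176 libraries of 6 tissues (gonadal adipose tissue, or GAT, heart, kidney, limb muscle, liver and mesenteric adipose tissue, or MAT) from male mice surgically joined in pairs for weeks. Isochronic pairs were of like age (IY, 8 young mice of 3 or 4.5 months, and IA, 8 mice of 19 months), and heterochronic pairs joined a mouse of 4 months (HY, 7 mice) to a mouse of 19 months (HA, 7 mice). HY mice were of another strain than the other parabionts, which were C57BL/6J or C57BL/6JN, so strain and group cannot be told apart in any comparison with HY. As HA mice were joined to HY mice, the age and the strain of the partner cannot be told apart in HA minus IA. The labels used here do not link aging libraries of different tissues to a mouse, and p-values measure the spread between the libraries of a tissue.

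A miRNA finds its target mRNAs mainly by pairing of the seed, bases 2 to 8 from its 5′ end, with a match in the target, after which the mRNA is repressed or destroyed. Members of a family share a seed and so share most predicted targets, while the bases after the seed and the place of the gene in the genome differ between members. miR-30 miRNAs are abundant in kidney epithelium, including podocytes, and in heart muscle, and they have been studied in fat cell differentiation and in fibrosis, where they repress connective tissue growth factor.

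The mature sequences below come from RefSeq (GRCm38.p6), with the seed in capitals and U for uracil, and show what the members share and where they part. In that table of 1679 mature miRNAs, 4 carry the seed GUAAACA, and 3 of the 5 members and 4 of the 6 other arms were matched by name; miR-30b and miR-30d were not among them.
miR-30a-5p: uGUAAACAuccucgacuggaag
miR-30e-5p: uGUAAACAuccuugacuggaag
miR-30c-5p: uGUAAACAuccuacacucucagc
miR-384-5p: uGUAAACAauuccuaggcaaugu
Counted from the 5′ end, miR-30a-5p and miR-30e-5p differ by the single substitution C13U, whereas miR-30a-5p and miR-30c-5p differ at C13A, G14C, G18C, G19U and A20C over the bases they have in common. The study's methods name an allowed mismatch for the depth filter and do not say whether it also held when reads were assigned to miRNAs. Where it did, a read with an error at position 13 could be given to miR-30a-5p or to miR-30e-5p. The other arms tell the 2 genes apart by other bases.
miR-30a-3p: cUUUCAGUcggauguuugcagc
miR-30e-3p: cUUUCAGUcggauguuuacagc
miR-30c-1-3p: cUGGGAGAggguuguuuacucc
miR-30c-2-3p: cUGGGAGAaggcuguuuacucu
Here miR-30a-3p and miR-30e-3p differ at G18A, and miR-30c-1-3p and miR-30c-2-3p at G9A, U12C and C22U. The last pair matters because miR-30c-5p itself is made by both Mir30c-1 and Mir30c-2 and does not show its origin, while the 3p arms do.

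The 6 genes lie in 3 pairs (GRCm38, the build of the deposited mapping). Mir30a (chr1:23272269-23272339) and Mir30c-2 (chr1:23291701-23291784) lie on the plus strand with 19361 bases between them, Mir30c-2 inside an exon of the lincRNA Gm27028. Mir30e (chr4:120772606-120772697) and Mir30c-1 (chr4:120769534-120769622) lie 2983 bases apart on the minus strand in introns of Nfyc, which codes for a subunit of the NF-Y transcription factor. Mir30b (chr15:68337415-68337510) and Mir30d (chr15:68341208-68341289) lie 3697 bases apart on the minus strand, Mir30b in an exon of the noncoding gene Gm26621 and Mir30d in exons of Gm37296 and Gm20732. The seed relative Mir384 is on the X chromosome (chrX:105344282-105344369, minus strand). Mir30f, annotated on the plus strand, overlaps Mir30e, and whether reads of such opposite genes were told apart is not given in the sources used here.

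Libraries of the aging cohort held 2.29 to 167 M mapped reads (M for mega, median 20.1 M) and those of the parabiosis cohort 9.20 to 47.6 M (median 20.1 M), while the summed miRNA value ranged from 3181 to 1067762 rpmm in the aging cohort. By miRNA profile, 10 aging and 3 parabiosis libraries were closest to another tissue than their label, and 27 aging libraries had under 5 M mapped reads or a miRNA sum under 50000 rpmm; results that rest on such libraries are given with and without them. Defining miRNAs of brain, liver, skin, lung, limb muscle, pancreas, small intestine and brown adipose tissue (BAT) had their highest median in the tissue of that name, although the pancreas list fell to 56.9 rpmm in a single pancreas library against a median of 18020 rpmm. The kidney list (miR-192, miR-194 and miR-10a) was higher in small intestine (median 67705 rpmm) than in kidney (17059 rpmm), the heart list was higher in limb muscle than in heart, the bone list was higher in spleen than in bone, and the white blood cell list was highest in spleen and marrow.

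All 5 members passed the filter on low values (a tissue had to hold at least 1 rpmm in no fewer than 10% of its libraries) in every tissue of both cohorts, and no library listed a member at 0. The lowest value of any member was 1.46 rpmm, in pancreas, and behind the members stood at least 34 (miR-30a-5p), 15 (miR-30b-5p), 13 (miR-30c-5p), 12 (miR-30d-5p) and 68 (miR-30e-5p) reads in any aging library. Levels therefore rest on counted reads everywhere, if on few in the poorest libraries.

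The family was at its highest level in kidney, heart and lung. The sum of the 5 members reached 11739 ± 5115 rpmm in kidney (SD, n = 51), where it made up 3.35% of the summed miRNA value, 8206 ± 2555 rpmm in heart (n = 53) and 7827 ± 2682 rpmm in lung (n = 55). It was lowest in pancreas (883 ± 358 rpmm, n = 45), skin (1506 ± 768 rpmm, n = 47) and bone (1641 ± 1181 rpmm, n = 48). As a share of the summed miRNA value the order differed. Brain, with a sum of 3571 rpmm, had 0.68%, below bone with 0.78%, and heart had 1.51%. In the parabiosis cohort kidney (15177 ± 4701 rpmm, n = 29) and heart (10535 ± 2306 rpmm, n = 30) again stood above the other 4 tissues, which had means from 2767 rpmm in liver to 4455 rpmm in GAT. In bulk tissue, fewer cells of a type and less RNA per cell cannot be told apart.

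**Figure D1:**
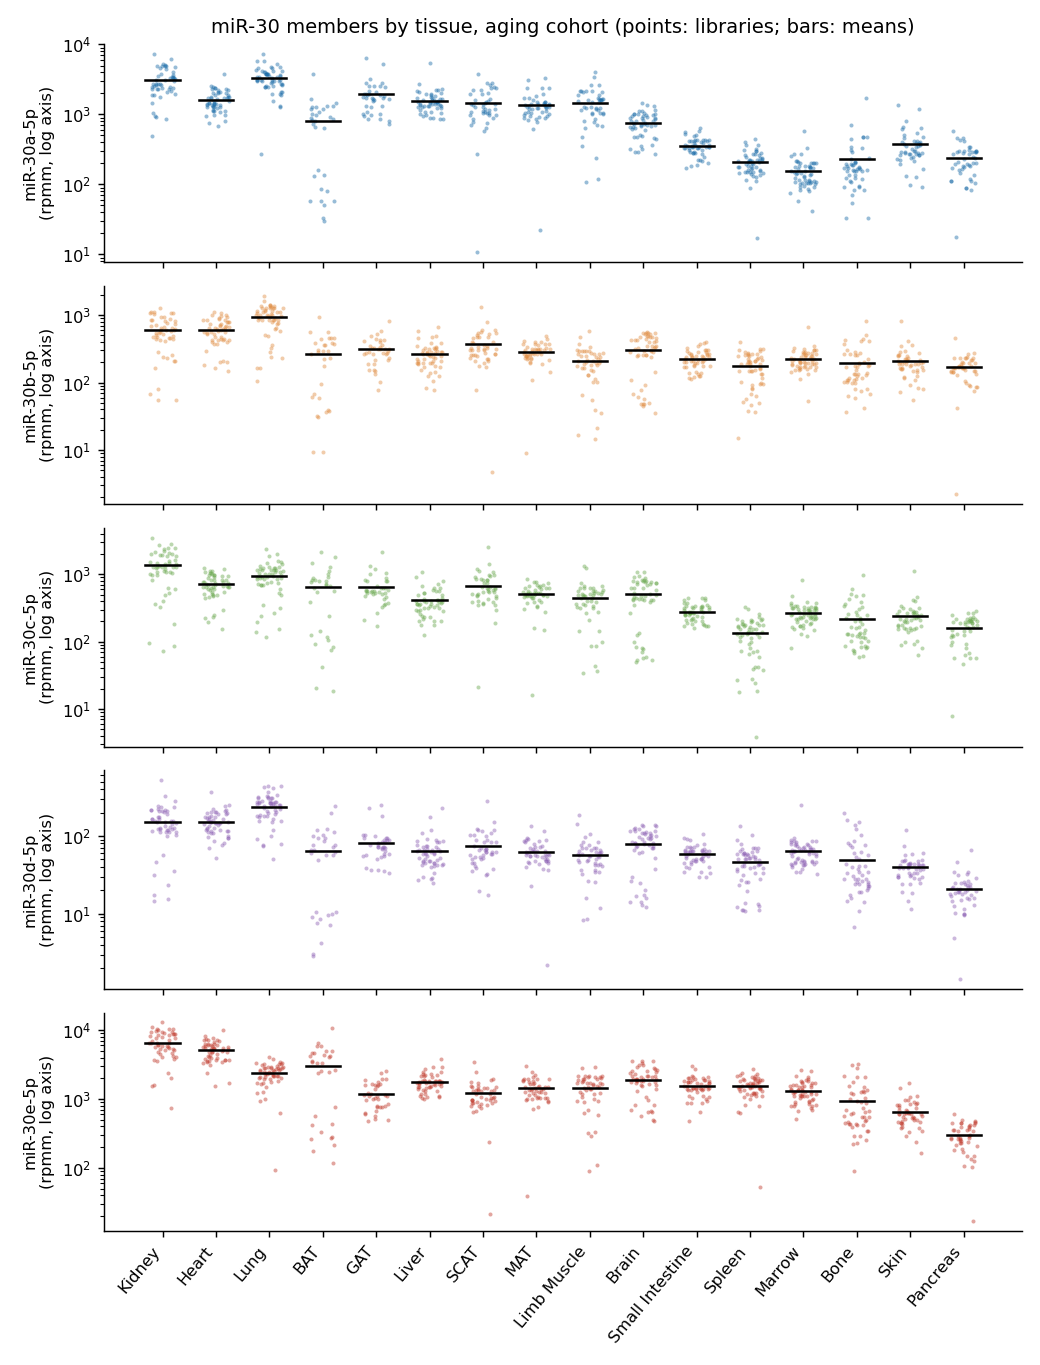
Level of each miR-30 member (rpmm, log axis) in the libraries of the 16 aging tissues, with 1 point per library and a bar at the mean. miR-30e-5p is highest in kidney (mean 6560 rpmm) and heart (5124 rpmm), whereas miR-30a-5p is highest in lung (3332 rpmm) and kidney (3074 rpmm), and miR-30d-5p has the lowest mean of the 5 members in each of the 16 tissues.

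The members did not share one order of tissues. miR-30e-5p was highest in kidney (6560 ± 2739 rpmm, lowest library 733) and heart (5124 ± 1634 rpmm), followed by BAT (2979 ± 2478 rpmm), lung (2369 ± 777 rpmm) and brain (1918 ± 834 rpmm), and it was lowest in skin (645 ± 290 rpmm) and pancreas (298 ± 125.6 rpmm). On the fitted log2 scale the span from kidney to pancreas was 22.1-fold. The order by mean log2 value, used for the tests, is not that of the mean rpmm above. In it kidney and heart did not differ beyond their spread, and heart exceeded lung, the next tissue. Among the 15 neighbouring places of this order 12 did not differ (limma adjusted p at or above 0.05).

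miR-30a-5p put other tissues first. It was highest in lung (3332 ± 1222 rpmm, n = 55) and kidney (3074 ± 1417 rpmm, n = 51), which did not differ, then in GAT (1944 ± 1135 rpmm, n = 37), heart (1622 ± 556 rpmm) and liver (1581 ± 688 rpmm). The blood-forming tissues were at the other end, with 156 ± 80.3 rpmm in marrow (n = 56), 210 ± 78.7 rpmm in spleen (n = 55) and 231 ± 258 rpmm in bone, and the fitted fold from marrow to lung was 21.5. Only the steps from kidney to GAT (limma adjusted p = 0.000806), from subcutaneous adipose tissue (SCAT) to brain, from brain to BAT and from skin to pancreas differed among the 15 neighbouring places.

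The members made from chromosome 15 peaked in lung. miR-30b-5p reached 931 ± 396 rpmm in lung, above heart (600 ± 245 rpmm, limma adjusted p = 0.00233) and kidney (596 ± 311 rpmm), and it was lowest in spleen (175 ± 87.7 rpmm) and pancreas (169 ± 72.9 rpmm), the narrowest fitted span of the family at 5.48-fold. Its partner miR-30d-5p went from 239 ± 90.2 rpmm in lung to 21.0 ± 10.6 rpmm in pancreas, 11.2-fold. miR-30c-5p, made by 2 genes, was highest in kidney (1357 ± 757 rpmm) and lung (955 ± 459 rpmm) and lowest in spleen (134 ± 73.8 rpmm), 9.90-fold, and no neighbouring tissues in its order differed. Of all pairs of tissues, 446 of 600 member contrasts were called (limma adjusted p under 0.05), against 69.8% over all miRNAs tested, a share close to that background.

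The 31 BAT libraries did not form a single group. In 20 of them miR-30e-5p lay between 2413 and 10602 rpmm (median 4184) and in the other 11 between 118 and 776 rpmm (median 283), with no library between. The 11 low libraries had 3.15 to 8.47 M mapped reads against 4.999 to 25.2 M, a brown fat marker sum (miR-193b, miR-365 and miR-455) of 266 to 988 rpmm against 1538 to 10398 rpmm, and 6 of the 11 were from females against 4 of the 20. Their part in the BAT levels was not tested, and the BAT mean of 2979 rpmm above describes neither set of libraries.

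Brain and kidney libraries also held a subset that stood apart by the number in the library label. The 12 brain libraries numbered 25 to 36 had a median miRNA sum of 199346 rpmm, against 581842 to 602391 rpmm in the other sets of 12 numbers, and their median miR-30b-5p was 53.5 rpmm against 286 to 430 rpmm. The 9 kidney libraries numbered 1 to 12 had a median miRNA sum of 116723 rpmm against 395676 to 419448 rpmm, and a median miR-30e-5p of 2418 rpmm against 5955 to 8809 rpmm. The spread of the brain and kidney levels includes these sets.

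miR-384-5p, which carries the same seed, passed the filter only in brain, MAT and small intestine. It averaged 69.9 ± 33.9 rpmm in brain (n = 51), 1.53 rpmm in MAT and 0.722 rpmm in small intestine, and no other aging tissue exceeded a mean of 0.427 rpmm. Brain thus held the seed relative at a level close to that of miR-30d-5p there (78.1 ± 38.5 rpmm).

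The make-up of the family differed between tissues. miR-30e-5p was the largest part in spleen (73.4 ± 5.4% of the 5 members), marrow (65.0 ± 4.2%), BAT (62.3 ± 6.4%), heart (62.3 ± 4.5%), small intestine (62.2 ± 4.2%) and kidney (56.5 ± 4.3%). miR-30a-5p was the largest part in GAT (45.7 ± 5.8%), lung (42.5 ± 4.9%) and SCAT (37.4 ± 6.4%) and was a small part in marrow (7.5 ± 1.9%). miR-30d-5p never averaged more than 3.5%.

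**Figure D2:**
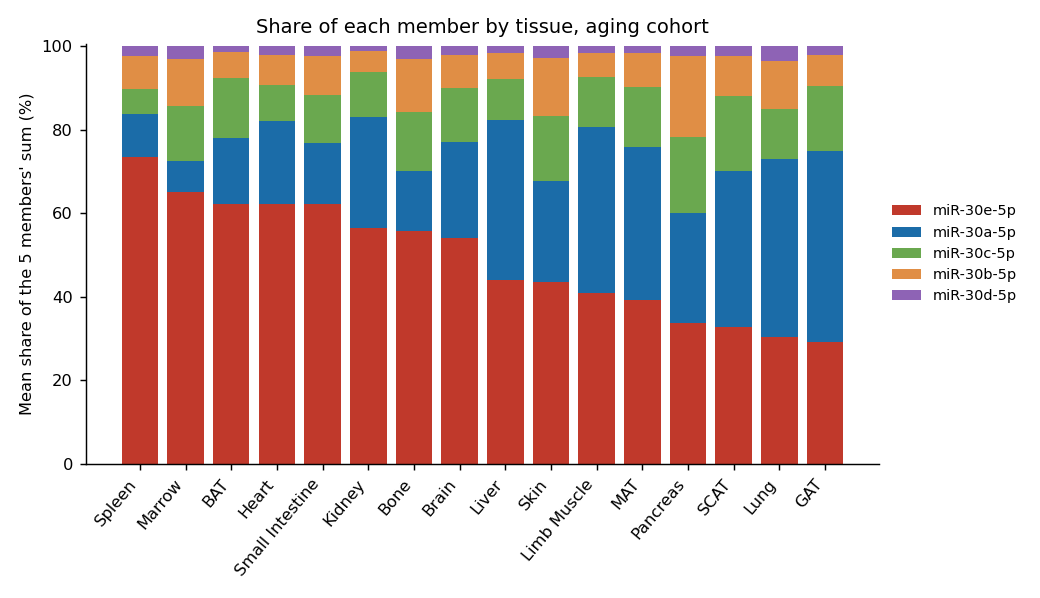
Mean share (percent) of each member in the sum of the 5 members for the 16 aging tissues, as stacked bars that start at 0 and add to 100. miR-30e-5p takes from 29.3% in GAT to 73.4% in spleen, and miR-30a-5p from 7.5% in marrow to 45.7% in GAT.

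The shift between miR-30e-5p and miR-30a-5p ran along with the arms made from the same places in the genome. The log2 ratio of miR-30e-5p to miR-30a-5p averaged 3.14 ± 0.40 in marrow and 2.86 ± 0.36 in spleen, and at the other end -0.50 in lung and -0.66 ± 0.44 in GAT. The log2 ratio of miR-30c-1-3p, the partner of miR-30e on chromosome 4, to miR-30c-2-3p, the partner of miR-30a on chromosome 1, averaged 1.49 ± 0.37 in marrow and 1.07 in spleen, and -2.23 in GAT and -2.75 ± 0.36 in lung. These 2 ratios use different reads, and marrow and spleen topped both orders while GAT and lung closed both.

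Across the 16 tissue means the 2 ratios had Pearson r = 0.97 and Spearman rho = 0.93, and the ratio of miR-30e-3p to miR-30a-3p had r = 0.98 with that of the miR-30c 3p arms. The points share libraries and depth, so the values describe these tissues and carry no test. Within chromosome 15, the log2 ratio of miR-30b-5p to miR-30d-5p stayed between 1.72 and 2.92 in tissue means and did not follow the first ratio (r = -0.24, rho = -0.21). The ratio of the 5p to the 3p arm of a precursor was also unequal within the family, with tissue means of log2 3.71 to 5.69 for miR-30e, 3.69 to 4.77 for miR-30b, 1.27 to 3.77 for miR-30a and 0.34 to 1.403 for miR-30d.

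**Figure D3:**
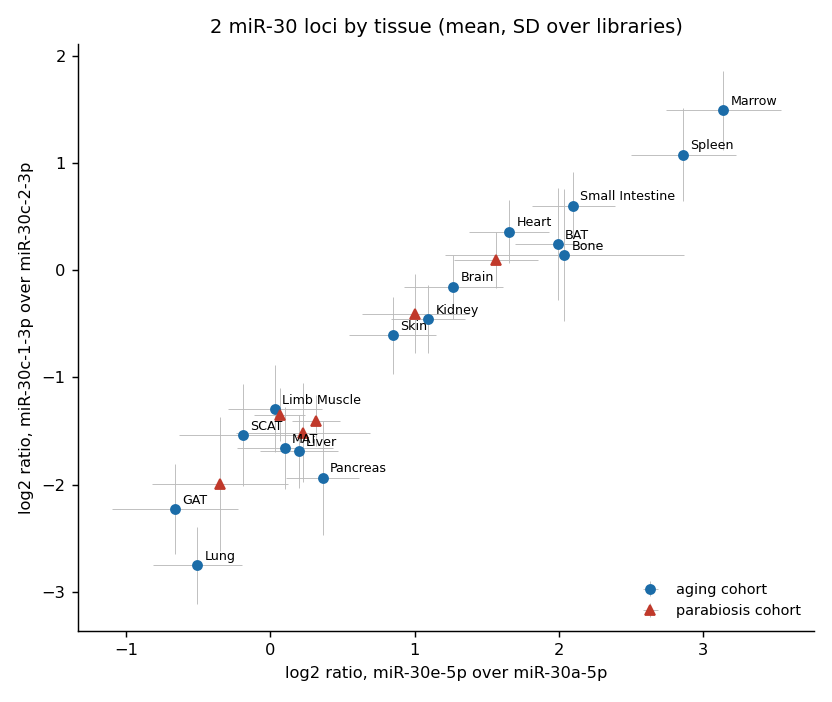
Tissue means of the log2 ratio of miR-30e-5p to miR-30a-5p (horizontal axis) and of miR-30c-1-3p to miR-30c-2-3p (vertical axis), with bars of 1 SD over libraries. Circles are the 16 aging tissues and triangles the 6 parabiosis tissues. In the aging cohort marrow (3.14 and 1.49) lies at one end and lung (-0.50 and -2.75) and GAT (-0.66 and -2.23) at the other.

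Over tissue means of log2(rpmm + 1), the members closest to each other were miR-30b-5p and miR-30d-5p (r = 0.95), which share a locus, and the least alike were miR-30a-5p and miR-30e-5p (r = 0.61), which differ by 1 base. Between libraries of the same tissue the order was another: miR-30b-5p and miR-30c-5p had the highest median r (0.96, and 0.95 after scaling to the miRNA sum), and miR-30a-5p and miR-30e-5p reached 0.91 (0.85 after that scaling). The lowest r of any pair in any tissue was 0.16 before that scaling, between miR-30d-5p and miR-30e-5p in heart, and -0.19 after it, between miR-30a-5p and miR-30c-5p in brain.

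Among 357 other miRNAs compared over the same 16 tissue means, those most like miR-30a-5p were miR-101a-5p (r = 0.91), miR-101c (0.88) and miR-151-5p (0.85). miR-30b-5p was most like let-7a-5p (0.89), let-7d-5p (0.86) and miR-23b-5p (0.85), and miR-30d-5p most like let-7d-3p (0.92), let-7f-5p (0.91) and let-7a-5p (0.89). For miR-30c-5p the closest were let-7b-3p (0.84), miR-322-3p (0.81) and miR-99b-5p (0.81). For miR-30e-5p they were miR-1964-5p (0.77), let-7f-1-3p (0.76) and let-7d-3p (0.76).

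Over the lifespan the members moved little with age in most tissues. Spearman's rho with age passed 0.5 in size for 1 of 80 pairs of member and tissue, miR-30a-5p in bone, against 3.75% of all miRNA and tissue pairs above 0.5 and 4.31% below -0.5, so the family lay under the background. By adjusted permutation p under 0.05, 5 of 80 pairs passed, against 17.9% of all pairs. In liver, rho ran from 0.14 to 0.31 over the 5 members, in lung from 0.11 to 0.32, in pancreas from -0.30 to -0.18 and in spleen from -0.23 to -0.10, with no adjusted permutation p under 0.05 among them.

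In bone miR-30a-5p rose with age, and its level was highest in the libraries of 21 and 24 months. Its values at 1 month ran from 32.8 to 162 rpmm (median 80.7, n = 6), at 3 months from 54.5 to 233 rpmm (median 101.4, n = 6), and at 12 months from 121.98 to 166 rpmm (median 161, n = 4). At 21 months the 5 libraries had 91.0, 309, 438, 468 and 1739 rpmm, at 24 months the 3 had 208.5, 475 and 704 rpmm, and at 27 months the 4 had 156, 195, 204.6 and 469 rpmm. The range of every later age overlapped that of 3 months, and the libraries of 27 months lay mostly below those of 21 and 24 months.

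Spearman's rho was 0.60 for this member (n = 48, permutation p = 3e-05, adjusted p = 0.000999) and Pearson's r 0.59 (permutation p = 1e-05, the smallest that the shuffles can give). With the 2 libraries of most extreme age left out they were 0.61 and 0.59, and within sets of 12 label numbers rho was 0.58. The value of rho fell to 0.48 without the 1-month libraries, and was 0.56 without those closest to another tissue. In bone 6.38% of miRNAs had a rho above 0.5 and 20.8% an adjusted p under 0.05. miR-30c-5p also passed the permutation test there (rho = 0.41, adjusted p = 0.0249), and miR-30c-2-3p, the arm from the locus of miR-30a, had rho = 0.53.

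Other measures of the bone libraries moved with age as well. The sum of the muscle markers, which ran from 2181 to 106632 rpmm, had rho = 0.59 with age and 0.62 with miR-30a-5p, the vessel markers 0.35 and 0.73, the brown fat markers 0.29 and 0.70, and the miRNA sum 0.39 and 0.68 (n = 48). Their part in the result was not tested.

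In the comparison of 21 with 3 months, the contrast called AGE in the study, 1 of 70 member and tissue pairs passed the test (10 at unadjusted p under 0.05), against 3.86% of all pairs and 2.06% of bone miRNAs called higher. This was again miR-30a-5p in bone, higher by 1.84 ± 0.49 (log2, SE; limma adjusted p = 0.0288). At 3 months its 6 libraries had 54.5 to 233 rpmm, so the 21-month library with 91.0 rpmm lay among them. The 21-month library of 1739 rpmm, replicate 37, was closest to SCAT by its miRNA profile. Without libraries closest to another tissue the difference was 1.31 (limma adjusted p = 0.19), after scaling to the miRNA sum 1.00 (0.19), with plate as a covariate 1.85 (0.19), in males only 1.32 (0.42) and without libraries of low depth 1.81 (0.051), and it was called in 5 of the 11 fits that left out a library. It was lost without 21-month replicates 22 or 37 or 3-month replicates 02, 05, 42 or 53 (log2 1.31 to 2.37 over the 11).

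The other 3 pairs past the adjusted permutation p were miR-30a-5p, miR-30c-5p and miR-30e-5p in BAT, whose libraries fall into 2 sets. Within the 20 libraries of the high set rho of these 3 was 0.40 to 0.44 and within the 11 of the low set it was -0.27 to -0.11, so no value over both sets is given. Of BAT miRNAs, 41.6% passed the same test over all 31 libraries, and the miRNA sum itself had rho = 0.61 with age in the high set and -0.27 in the low set.

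Against 3 months, no member and tissue pair passed the limma test at 6, 9, 12, 18 or 24 months. Of 75 pairs at 6, 9 and 12 months, 15, 8 and 4 had an unadjusted p under 0.05, as had 8 of 70 at 18 months and 7 of 60 at 24 months, and the shares of all miRNA pairs called were 1.91%, 0.997%, 0.961%, 2.99% and 1.4%. edgeR on the reads recovered from the values called none at these ages either (0 of 75, 75, 75, 70 and 60). With plate as a covariate, all 5 members were called higher in brain at 12 months (log2 0.96 to 2.47, limma adjusted p 0.012 to 0.024), as were miR-30b-5p and miR-30c-5p in kidney at 6 months (1.65 and 1.96, adjusted p = 0.046 and 0.044). With sets of 12 label numbers, miR-30c-5p and miR-30e-5p were called higher in kidney at 6 months (1.57 and 1.15, adjusted p = 0.040 and 0.049). The brain and kidney are the tissues in which a set of libraries stood apart. In skin at 6 months miR-30c-5p was called lower in males only (-1.30, adjusted p = 0.040) and without libraries closest to another tissue (-1.07, 0.044). Of 93 pairs of another arm or miR-384-5p and a tissue, 6 were called at 6 months, against 1.91% of all pairs. In liver miR-30b-3p, miR-30c-1-3p and miR-30c-2-3p were higher (0.79 to 1.13, limma adjusted p 0.036 to 0.048). In skin the same 3 arms were lower (-1.48 to -1.01, adjusted p 0.038 to 0.046). No such pair was called at 9, 12 or 18 months. At 24 months 1 of 75 was called, miR-30a-3p higher in liver (1.33, adjusted p = 0.046). The contrasts share their 3-month libraries and were read one by one.

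At 15 months, 5 of 75 pairs were called, all lower, against 2.79% of all pairs called lower. This direction held for the fit without technical covariates: with plate as a covariate all 5 members were called higher in brain at 15 months (log2 1.42 to 1.89, limma adjusted p 0.020 to 0.037), and with sets of 12 label numbers all but miR-30c-5p were (0.90 to 1.16, adjusted p 0.0045 to 0.027). In limb muscle 4 of the 5 members fell, where 22.2% of all miRNAs were called lower. miR-30e-5p had 91.5, 334, 632, 922 and 1413 rpmm in the 5 libraries of 15 months and 1253 to 2894 rpmm (median 1733) in the 6 of 3 months, and fell by 1.89 ± 0.56 (log2; limma adjusted p = 0.0111). A single 15-month library reached into the 3-month range.

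miR-30b-5p had 14.4, 35.7, 102, 147 and 167 rpmm at 15 months against 192.1 to 337 rpmm (median 229) at 3 months, with no overlap, and fell by 1.80 ± 0.61 (adjusted p = 0.0288). miR-30a-5p fell by 1.62 ± 0.55 (adjusted p = 0.0295), also without overlap, and miR-30d-5p fell by 1.41 ± 0.47 (adjusted p = 0.0279). Of limb muscle miRNAs, 16.1% were lower without overlap. miR-30c-5p had -1.62 (limma adjusted p = 0.061).

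The 15-month muscle libraries were shallower, with 3.40 to 20.6 M mapped reads against 13.5 to 29.8 M, and the median over all miRNAs was -0.45. The fibroblast marker sum (miR-199a and miR-214) was 592 to 3335 rpmm against 2926 to 6492 rpmm and the white blood cell sum 167 to 702 rpmm against 494 to 1256 rpmm, while the muscle sum was 201742 to 346751 rpmm against 292205 to 384844 rpmm. Their part in the result was not tested. Without replicate 33, the library of 3.40 M reads, the difference of miR-30e-5p was -1.29 (limma adjusted p = 0.12), and it was called in the other 10 fits that left out a library; with every muscle library of low depth left out it was -1.29 as well (adjusted p = 0.024). The calls of the other 3 members were lost without 15-month replicate 22 or 33 or 3-month replicate 11, those of miR-30a-5p and miR-30b-5p also without 3-month replicate 15, and all 3 with sets of 12 label numbers, under median-ratio scaling and under edgeR, where miR-30e-5p passed (adjusted p = 0.043), and with plate as a covariate none passed (miR-30e-5p -1.49, adjusted p = 0.21).

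In skin miR-30d-5p was lower at 15 than at 3 months. Its 6 libraries of 15 months had 14.6 to 44.1 rpmm (median 27.7) and those of 3 months 33.5 to 75.1 rpmm (median 52.4), which overlap, and the difference was -0.90 ± 0.30 (log2; limma adjusted p = 0.0338), where 17.3% of skin miRNAs were called lower. The median over all skin miRNAs was -0.51, and after scaling to the miRNA sum the difference was -0.23 (limma adjusted p = 0.78). It was called in 6 of the 12 fits that left out a library (-1.03 to -0.73) and lost without 15-month replicate 12, 46 or 50 or 3-month replicate 18, 20 or 22. The call was also lost under median-ratio scaling (-0.27, adjusted p = 0.52) and with sets of 12 label numbers as a covariate (-0.72, adjusted p = 0.085). In males only, all 5 members were called lower in skin (-1.64 to -1.30, limma adjusted p 0.0071 to 0.011). The miRNA sum of these libraries was 127900 to 313144 rpmm at 15 months and 241968 to 434206 rpmm at 3 months.

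At 27 months 3 of 70 pairs were higher, against 4.42% of all pairs, and all lay in liver, where 28.1% of miRNAs were called higher. miR-30e-5p had 1836, 1850, 2947 and 2953 rpmm at 27 months and 1082 to 1672 rpmm (median 1486) at 3 months, with no overlap, as for 20.6% of liver miRNAs, and was higher by 0.76 ± 0.28 (log2; limma adjusted p = 0.0351). miR-30b-5p had 197, 351, 494 and 578 rpmm against 106 to 251 rpmm (median 181), which overlap, and was higher by 1.14 ± 0.39 (adjusted p = 0.0257). miR-30c-5p was higher by 1.10 ± 0.40 (adjusted p = 0.0334), and miR-30a-5p had 0.77 (adjusted p = 0.059). Of 87 pairs of another arm or miR-384-5p and a tissue, 5 were higher, against the same 4.42%. These were miR-30b-3p, miR-30c-1-3p, miR-30c-2-3p and miR-30d-3p in liver (0.78 to 1.16, limma adjusted p 0.025 to 0.043) and miR-30b-3p in MAT (0.80, adjusted p = 0.023). miR-384-5p was lower in MAT (-1.12, adjusted p = 0.014), at means of 0.405 and 2.18 rpmm. For the members, other tissues were called under alternatives only. With plate as a covariate, miR-30b-5p and miR-30c-5p were called higher in kidney (1.71 and 1.91, limma adjusted p = 0.049 and 0.046). They were also called there without libraries of low depth (2.19 and 2.45, adjusted p = 0.039 and 0.037). After scaling to the miRNA sum, miR-30a-5p, miR-30b-5p and miR-30e-5p were called higher in MAT (0.81 to 1.07, adjusted p 0.010 to 0.037).

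The miRNA sum of the same liver libraries was 360624 to 465531 rpmm at 27 months and 174600 to 328203 rpmm at 3 months, without overlap, and the median of all liver miRNAs was 0.55. After scaling to the miRNA sum miR-30b-5p differed by 0.47 (limma adjusted p = 0.48), and none of the 3 passed, nor did any under median-ratio scaling (0.02 to 0.40). With plate as a covariate and with no filter the calls of miR-30c-5p and miR-30e-5p were lost (limma adjusted p 0.057 to 0.065). In the fits that left out each of the 10 libraries in turn, miR-30b-5p and miR-30e-5p were called in 6 and miR-30c-5p in 4 (log2 0.65 to 1.45 over the 3). All 3 calls were lost without 27-month replicate 13 or 18 or 3-month replicate 14 or 35, and that of miR-30c-5p also without 27-month replicate 16 or 3-month replicate 28.

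From 1 to 3 months, 5 of 70 pairs were higher, against 0.892% of all pairs and 9.14% of MAT miRNAs, and all 5 lay in MAT. There miR-30e-5p had 38.8, 1417 and 1419 rpmm at 1 month and 1044, 1511, 1656, 1978 and 2078 rpmm at 3 months. The calls were lost without the first of these libraries, replicate 21, with 5.90 M mapped reads and a miRNA sum of 29660 rpmm: the 5 differences were 1.67 to 2.39 (log2) with it and 0.10 to 0.64 without it (limma adjusted p = 0.99). All 5 calls were also lost without 3-month replicate 05, 12 or 17, those of miR-30b to miR-30e without replicate 01 and that of miR-30c without replicate 08, and each was kept in 2 to 4 of the 8 fits that left out a library. None of the 5 was called under edgeR (adjusted p 0.54 to 0.63), with plate or sets of 12 as a covariate, in males only, with no filter or after scaling to the miRNA sum.

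Between sexes, 3 of 80 pairs passed, against 6.15% of all pairs. In SCAT miR-30a-5p ran from 272 to 1569 rpmm in the 11 females (median 968) and averaged 974 ± 428.9 rpmm, against 1627 ± 629 rpmm in the 23 males of the same ages, a male excess of 0.75 ± 0.22 (log2; limma adjusted p = 0.0102). miR-30d-5p averaged 47.99 ± 19.1 rpmm in females and 81.0 ± 29.4 rpmm in males (0.75 ± 0.20, adjusted p = 0.00542), and in SCAT 28.1% of miRNAs were called higher in males. In skin miR-30d-5p was lower in males (33.9 ± 14.1 rpmm, n = 26) than in females (42.8 ± 4.602 rpmm, n = 13), by -0.43 ± 0.16 (adjusted p = 0.0427), where 16.4% of miRNAs were called lower.

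The SCAT libraries of the sexes also differed in other cell markers. The epithelium markers (the miR-200 family, miR-141 and miR-429) summed to 1087 to 7762 rpmm in females and 10.4 to 959 rpmm in males, without overlap, and the skin markers to 867 to 3664 rpmm against 22.3 to 1978 rpmm. Their part in the result was not tested. After scaling to the miRNA sum none of the 3 sex differences passed. That of skin was also lost with plate (-0.29, limma adjusted p = 0.31) and with sets of 12 as a covariate (-0.38, adjusted p = 0.13), and that of miR-30a-5p in SCAT under median-ratio scaling (0.38, adjusted p = 0.063). With plate as a covariate, miR-30b-5p, miR-30c-5p and miR-30e-5p were called higher in males in SCAT (0.59 to 0.84), and miR-30b-5p and miR-30c-5p lower in males in kidney (-0.97 and -1.17).

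A second look at age used the ratios between loci, which were chosen after the tissue means had been seen. These ratios depend on the scaling of a library only through the pseudocount of 1 rpmm. Of 32 ratio and tissue pairs, 2 passed a rho of 0.5 in size and both lay in SCAT, where the arms from chromosome 4 gave way to those from chromosome 1. The log2 ratio of miR-30e-5p to miR-30a-5p was -0.15 to 0.94 at 3 months (mean 0.32, n = 4), -0.87 to -0.11 at 21 months (median -0.57, mean -0.52, n = 6) and -0.98, -0.64 and -0.33 at 27 months. The 3- and 27-month libraries did not overlap, and the means fell from 0.32 at 3 months through -0.19 at 6, 0.00 at 9, -0.06 at 12, -0.23 at 15 and -0.26 at 18 months.

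The ratio of miR-30c-1-3p to miR-30c-2-3p averaged -0.77 at 3 months (-1.28 to -0.04), -1.61 at 9 months, -1.63 at 21 months and -1.92 at 27 months (-2.06 to -1.83). Spearman's rho with age was -0.58 for the first ratio (n = 44, permutation p = 5e-05, adjusted over the 32 ratio tests 0.0008; Pearson's r = -0.59) and -0.63 for the second (permutation p = 2e-05, adjusted 0.00064; r = -0.64). Leaving out the 2 libraries of most extreme age gave rho of -0.52 and -0.58. Within sets of 12 label numbers both were -0.63, and within plates -0.59 and -0.58.

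In males alone (n = 33) the 2 rho were -0.58 and -0.67, and in the 11 females -0.68 (permutation p = 0.025) and -0.39 (permutation p = 0.23). Leaving out libraries of low depth gave -0.55 and -0.61. None of the single levels moved as far: rho with age was 0.14 for miR-30a-5p, -0.27 for miR-30e-5p, -0.18 for miR-30c-1-3p and 0.35 for miR-30c-2-3p, while 1.19% of SCAT miRNAs had a rho above 0.5 and 11.2% below -0.5. Of the cell markers in these libraries, the white blood cell sum had rho = -0.42 with age, the fibroblast sum -0.32, the vessel sum 0.30 and the epithelium sum 0.07, and the bone list -0.52; with the first ratio itself the kidney list had -0.53 and the brown fat sum -0.48. Their part in the result was not tested. The next strongest ratio relations, in bone for the miR-30c arms and in MAT for miR-30e-5p to miR-30a-5p, had rho = -0.38 each (adjusted permutation p = 0.068).

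In parabiosis, between the 19-month and the 4-month partner of heterochronic pairs (HA minus HY), 1 of 30 pairs passed (2 at unadjusted p under 0.05), against 9.81% of all pairs. This was miR-30e-5p in kidney, where 8.94% of miRNAs were called lower. The 6 HA kidneys had 3629 to 8817 rpmm (median 5433, mean 5946 ± 1974) and the 7 HY kidneys 7344 to 13322 rpmm (median 9110, mean 9646 ± 2105). The upper 2 HA kidneys, 7799 and 8817 rpmm, overlapped the HY range, and the difference was -0.74 ± 0.20 (log2; limma adjusted p = 0.0083).

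**Figure D4:**
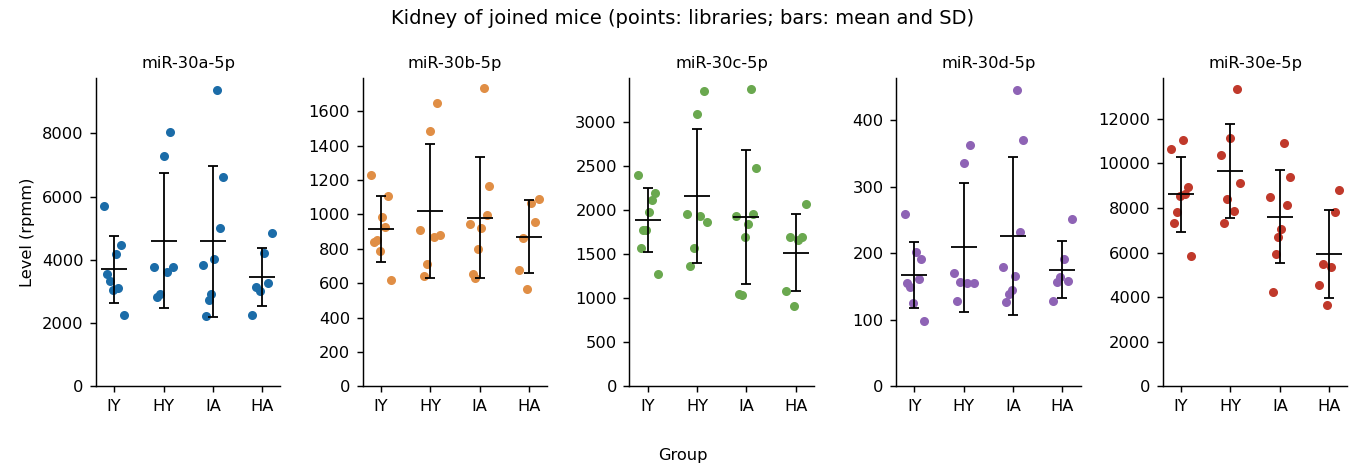
Level of miR-30 arms (rpmm) in the kidneys of the 4 parabiosis groups, with 1 point per library and a bar at the mean. miR-30e-5p lies at 3629 to 8817 rpmm in HA and 7344 to 13322 rpmm in HY, with IA (4243 to 10929 rpmm) and IY (5857 to 11056 rpmm) between and across them.

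The other members of the kidney did not pass, with -0.34 for miR-30a-5p, -0.19 for miR-30b-5p, -0.49 for miR-30c-5p and -0.17 for miR-30d-5p (limma adjusted p from 0.15 to 0.69). Arms from the chromosome 4 locus of miR-30e did: miR-30c-1-3p averaged 44.4 ± 18.9 rpmm in HA and 83.3 ± 21.4 rpmm in HY (-0.98 ± 0.21, adjusted p = 0.00121), and miR-30e-3p 157 ± 92.9 rpmm and 229 ± 30.9 rpmm (-0.72 ± 0.23, adjusted p = 0.022). From chromosome 1, miR-30a-3p had -0.08 ± 0.21 (adjusted p = 0.79) and miR-30c-2-3p -0.51 ± 0.19 (adjusted p = 0.0525). The within-library ratio of miR-30c-1-3p to miR-30c-2-3p averaged -0.79 ± 0.34 in HA and -0.32 ± 0.32 in HY, a difference of -0.47 (exact permutation p = 0.027, adjusted over 48 ratio tests 0.22), and that of miR-30e-5p to miR-30a-5p differed by -0.40 (exact permutation p = 0.084).

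The call of miR-30e-5p in kidney was kept under every alternative run for it, among them the pair number as a fixed block (-0.65, limma adjusted p = 0.037), the sequencing pool as a covariate, edgeR and each of the 13 fits that left out a library (-0.86 to -0.61). Fibroblast markers differed between the same kidneys without overlap (5815 to 8908 rpmm in HA and 3429 to 4353 rpmm in HY), as did white blood cell markers (1018 to 2412 rpmm and 502 to 997 rpmm), and the kidney list was 10229 to 20002 rpmm against 15985 to 27108 rpmm. The miRNA sum was 296244 to 473802 rpmm in HA and 388150 to 440222 rpmm in HY. Their part in the result was not tested, and HY mice were all of another strain than the HA mice.

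Between isochronic pairs (IA minus IY) no member passed in any tissue (0 of 30 by limma and by edgeR, 7 of 30 at unadjusted p under 0.05 by limma), against 8.13% of all pairs called. In kidney miR-30e-5p was 4243 to 10929 rpmm in IA (median 7583, n = 8) and 5857 to 11056 rpmm in IY (median 8588, n = 8), groups that overlap almost wholly. Whether the difference HA minus HY exceeds IA minus IY was tested for all 30 pairs. For miR-30e-5p in kidney it gave -0.53 ± 0.27 (limma adjusted p = 0.41), so the 2 are not shown to differ. No pair passed, and 4 had an unadjusted limma p under 0.05. These were miR-30a-5p, miR-30c-5p and miR-30e-5p in MAT (1.03 to 1.23, adjusted p = 0.34) and miR-30d-5p in limb muscle (0.55, adjusted p = 0.53). For IA minus IY, the members in MAT had -1.08 for miR-30a-5p and -0.65 to -0.89 for miR-30c-5p, miR-30d-5p and miR-30e-5p (limma adjusted p 0.12 to 0.17). With the joined pair as a random block, miR-30a-5p (-1.08, limma adjusted p = 0.031) and miR-30c-5p (-0.90, adjusted p = 0.032) were called lower in MAT. In heart miR-30a-5p had 0.49 and miR-30d-5p 0.50 (adjusted p 0.082 and 0.079), and after scaling to the miRNA sum both were called higher (0.62 and 0.63, adjusted p = 0.025 and 0.028), as miR-30e-5p was called lower in limb muscle (-0.34, adjusted p = 0.029).

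Of 37 pairs of another arm and a tissue, 3 were called for IA minus IY, a share near the 8.13% of all pairs. All 3 were lower in IA and lay in heart. miR-30e-3p averaged 128 ± 15.5 rpmm in IA and 185 ± 32.8 rpmm in IY (-0.52 ± 0.13, limma adjusted p = 0.0105). miR-30c-1-3p differed by -0.45 ± 0.14 (adjusted p = 0.0252) and miR-30d-3p by -0.39 ± 0.11 (adjusted p = 0.017). In kidney no arm passed for IA minus IY, but the arms called for HA minus HY had the same sign. There miR-30c-1-3p differed by -0.61 ± 0.19 (limma adjusted p = 0.0523) and miR-30e-3p by -0.39 ± 0.21 (adjusted p = 0.28). The log2 ratio of miR-30e-5p to miR-30a-5p in heart differed by -0.41 (exact permutation p = 0.010), in kidney by -0.41 (0.012), in limb muscle by -0.21 (0.013) and in GAT by 0.41 (0.0030), all IA minus IY. Of the 48 ratio tests 7 had an exact permutation p under 0.05 and none an adjusted one, the lowest adjusted value being 0.14.

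No member passed in the contrasts of a young with an aged partner either. For mice of 19 months joined to a young rather than an aged partner (HA minus IA, called REJ in the study), 0 of 30 pairs passed by limma and by edgeR and 2 had an unadjusted p under 0.05 by limma, against 0.965% of all pairs called. These 2 were miR-30a-5p (0.91) and miR-30c-5p (0.84) in MAT (limma adjusted p = 0.21 and 0.20). There miR-30b-5p, miR-30d-5p and miR-30e-5p had 0.43 to 0.70. For young mice joined to an aged partner (HY minus IY, called ACC), 0 of 30 pairs passed by limma and by edgeR, 0 had an unadjusted p under 0.05, and 0.0% of all 3211 miRNA and tissue pairs were called (155 at unadjusted p under 0.05). HY mice were of 4 months and of another strain, and IY mice of 3 or 4.5 months. ACC therefore does not isolate the partner's age, and neither does REJ, because the partners of HA mice were HY mice. In kidney miR-30e-5p had -0.37 ± 0.20 for REJ (limma adjusted p = 0.38) and 0.16 ± 0.19 for ACC (adjusted p = 0.98).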

How the data were processed

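Small RNA libraries of the aging and parabiosis cohorts were sequenced as single-end reads, and the authors processed them with miRMaster, mapped reads with Bowtie to miRBase and other RNA references (mm10) and kept the first of identical paralogs. The deposited signal of each miRNA is its reads scaled to the mapped reads of the library (rpmm). Of miRNA values under 1000 reads, 98.8% to 99.0% came out as whole reads (within 0.05 read). miR-30b-5p and miR-30d-5p were whole in every library, miR-30a-5p in 99.9% and miR-30e-5p in 99.5% of aging libraries, and miR-30c-5p, made by 2 genes, came in steps of 0.5 read. Samples were grouped by the labels, and 2 columns that no label named were not used.

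From these values miRNAs with at least 1 rpmm in at least 10% of a tissue's libraries were kept, transformed to log2(rpmm + 1) and fitted per tissue with limma 3.58.1 (eBayes with trend, R 4.3.3); the pseudocount understates changes at low levels. p-values were adjusted by Benjamini-Hochberg over all miRNAs of a tissue and contrast, and groups needed at least 3 libraries. Spearman's rho with age, read against 0.5 as in the study, had 100000 shuffles (two-sided). Other single values had two-sided exact permutation tests. The alternatives were edgeR 4.0.16 on the recovered reads (quasi-likelihood), other scalings, filters and pseudocounts, covariates, the pair block and left-out libraries. Scripts were tested on simulated data.

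The members, marker lists and tests were chosen with earlier results of these data known. Members were named where a contrast called them, with the other arms of their precursors, and the 3 most alike miRNAs per member by Pearson's r over tissue means. Depth was 2.29 to 167 M (mega) mapped reads per library. Pair numbers of the parabiosis labels mark mice joined to each other, so they pair HA with HY libraries, and numbers in the aging labels pair nothing. The name of the HY strain is not reported here.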

Additional observations from a re-analysis of the deposited data

Results flagged for a closer look

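Each member was examined in groups of 4 to 10 libraries of the called contrasts and the kidney parabiosis groups. This made 65 combinations of group and member. Of these, 4 held a library whose distance to the next exceeded Dixon's 95% critical value. Chance alone gives about 1 in 20 independent tests. The 5 members were measured in the same libraries, so these combinations are not independent. In bone at 21 months, replicate 37 had 1739 rpmm of miR-30a-5p, with the next library at 468 rpmm (n = 5), and this library was closest to SCAT by its miRNA profile. In bone at 3 months, replicate 18 had 158 rpmm of miR-30d-5p, with the next at 39.4 rpmm (n = 6). In MAT at 3 months, replicate 05 had 747 rpmm of miR-30c-5p (next 534 rpmm) and 134 rpmm of miR-30d-5p (next 71.5 rpmm, n = 5).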

How the results depend on the processing

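Depth limits the shallow libraries, in which a member can rest on 12 to 68 reads, and the single-base difference between miR-30a-5p and miR-30e-5p limits their split. Counts of called member pairs moved as follows, and the cause was not tested. For 21 minus 3 months (1), edgeR gave 2, the added call being miR-30c-5p higher in bone (1.76, edgeR adjusted p = 0.022). Median-ratio scaling gave 2, the added call being miR-30e-5p lower in GAT (-0.99, limma adjusted p = 0.019). Without libraries of low depth, miR-30e-5p was called lower in SCAT (-1.23, limma adjusted p = 0.016). The study's ratio threshold with the unadjusted limma p, in place of the study's t-test, gave 10. Males only, scaling to the miRNA sum, plate and leaving out libraries closest to another tissue gave 0 each. Leaving out a library gave 0 to 3. For all later ages minus 3 months (9), median-ratio scaling gave 3, no filter 5, plate 16 and the ratio with unadjusted p 71. For 3 minus 1 month (5), edgeR, males only, miRNA scaling, no filter, plate and sets gave 0 each. Leaving out libraries closest to another tissue gave 3, leaving out low depth 1 and the ratio with unadjusted p 15. The call without low depth was miR-30e-5p higher in limb muscle (1.31, limma adjusted p = 0.026), and none of the 5 in MAT. MAT was not fitted there, because without replicate 21 its 1-month group fell below 3 libraries. Leaving out a library gave 0 to 5. For sex (3), miRNA scaling gave 0, plate 7 and low depth left out 5. For IA minus IY (0), miRNA scaling gave 3 and the ratio with unadjusted p 4, for REJ (0) the latter 2 and for HA minus HY (1) it gave 2; leaving out a library gave 0 to 3, 0 to 0 and 1 to 1, and 0 to 0 for ACC. For rho with age (1), males only gave 2, no 1-month libraries 3 and adjusted p 5. miR-30b-5p in kidney minus pancreas turned to -0.15 under median-ratio scaling.

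With the joined pair as a replicate block, HA minus HY kept 1 call with a fixed and with a random block, and IA minus IY went from 0 to 2 with a random block (MAT miR-30a-5p, -1.08, limma adjusted p = 0.031, and miR-30c-5p, -0.90, 0.032). The block changed no other count of calls. Low-depth and pool alternatives and the ratio settings in SCAT were chosen after seeing the data. edgeR was not run for sex.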
